A study of Homo sapiens with 34 samples.

Results

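The genes described here encode the cues and receptors of 4 guidance systems: the ephrins with their Eph receptors, the semaphorins with the plexins, the SLIT proteins with the ROBO receptors, and the netrins with the UNC5 receptors. They were chosen by symbol alone, as every row of the count tables named EPHA, EPHB, EFNA, EFNB, SEMA3 to SEMA7, PLXN, ROBO, SLIT, NTN or UNC5 with the number or letter of a family member. The rule found 67 of 37951 rows, with 66 symbols: 9 EphA and 6 EphB receptor rows, 5 ephrin-A and 3 ephrin-B genes, 20 semaphorins, 9 plexins, 4 ROBO, 3 SLIT, 4 netrin and 4 UNC5 genes. EPHB6 has 2 rows, under ENSG00000106123 and ENSG00000275482, of which the second has no entry in GENCODE release 44. How their shared reads were split is uncertain. A test was possible for 66 rows. The row left out is ROBO4, a receptor of endothelial cells, which was filtered for low counts and reached at most 0.517 and 0.337 CPM, in the 2 DE(a)-PM libraries.

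The study asked how the position of a cell in the primitive streak (PS) affects the fates it can take, using ESI017, an established human embryonic stem cell line. RNA was sequenced from 34 libraries, 2 for each of 17 conditions. The control is undifferentiated ESI017 cells kept in mTeSR PLUS, for 48 h according to the labels. No undifferentiated library was labelled as collected at 24 h or before induction, so rises and falls at 24 h are differences from this control. The 4 PS populations were made during day 1 and collected at 24 h. DE(a), the first day of definitive endoderm, was induced with activin at 100 ng/ml and CHIR, which activates Wnt signaling, at 2 µM. APS (anterior PS) medium held less activin, 30 ng/ml, with bFGF at 20 ng/ml and CHIR at 4 µM. For MPS (mid PS) BMP4 was added to these at 40 ng/ml and CHIR was raised to 6 µM. PPS (posterior PS) medium was that of MPS with activin left out. All 4 day 1 media were based on Essential 6 medium, so the base medium also differed from that of the control. Each population was then moved for a second day into DE(b), PM or LM medium and collected at 48 h, and a condition is named by both days, such as APS-PM. DE(b), for definitive endoderm, held activin at 100 ng/ml and the BMP receptor inhibitor LDN at 250 nM. PM, for paraxial mesoderm, held bFGF at 20 ng/ml, LDN at 250 nM and the activin receptor inhibitor A8301 at 1 µM in the methods. The methods list no CHIR for PM, but the paper describes Wnt activation there on day 2, and 1 of its supplementary legends lists CHIR. With CHIR present, PM also differed from DE(b) and LM medium in Wnt activation. LM, for lateral mesoderm, held A8301 at 1 µM, BMP4 at 30 ng/ml and the Wnt secretion inhibitor IWP2 at 4 µM. In the standard protocols DE(b) medium follows DE(a), PM follows APS and LM follows MPS. All conditions come from 1 cell line.

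Ephrins and Eph receptors signal between touching cells, and they sort cells and keep tissue boundaries such as those between somites. Semaphorins are secreted or membrane-bound ligands whose plexin receptors, with neuropilins for most class 3 ligands, act on the cytoskeleton and on adhesion. SLIT proteins repel cells through ROBO receptors, and netrins attract or repel through DCC, neogenin and the UNC5 receptors. All were first studied in growing axons and blood vessels, and several are also used in gastrulation, somite formation and the migration of mesoderm.

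Library totals lay between 15522780 and 23439799 estimated counts. Levels are given as CPM, the estimated count scaled to a common library total. With 2 libraries a condition, both values are given, replicate 1 first. A single edgeR quasi-likelihood model of all libraries and 17895 genes gave the tests, with Benjamini-Hochberg adjustment, and calls were made below an adjusted p of 0.05. Log2 fold changes are given ± SE. In bulk RNA, fewer cells of a type and less RNA per cell cannot be told apart. The labelled fates were checked against their markers. TBXT, MIXL1 and EOMES together reached 1574 to 2955 CPM in the 24 h libraries against 1.58 to 1.86 in the control. SOX17 and FOXA2 together held 115.0 to 597 CPM in the DE(b) libraries, the lowest in PPS-DE(b), while TBX6 and MSGN1 held 196 to 279.5 in the PM libraries, and HAND1 and FOXF1 held 409 to 2235 in the LM libraries. SOX1 and PAX6, the defining neural markers, stayed under 1 CPM together in every library.

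Promoters are shown for 3 genes that were among the 5 largest rises or falls in comparisons of the day 2 media. PLXNA4 and NTN1, which changed more in some of these comparisons, are not shown. The 3 promoters are those of SLIT1, high in PM medium alone, EPHA7, high in LM medium, and SEMA6D, high in LM and DE(b) medium. Each is the 250 bases before an annotated start, 5′ to 3′ on the strand of the gene, from RefSeq on GRCh38.p14. The SLIT1 window is chr10:97185960-97186209 on the minus strand, the EPHA7 window is chr6:93417161-93417410 on the minus strand, and the SEMA6D window is chr15:47183839-47184088 on the plus strand. EPHA7 and SEMA6D each have 2 further annotated windows that are not shown. Capitals mark a GATA motif in EPHA7 and a TCF/LEF motif in SEMA6D.
SLIT1: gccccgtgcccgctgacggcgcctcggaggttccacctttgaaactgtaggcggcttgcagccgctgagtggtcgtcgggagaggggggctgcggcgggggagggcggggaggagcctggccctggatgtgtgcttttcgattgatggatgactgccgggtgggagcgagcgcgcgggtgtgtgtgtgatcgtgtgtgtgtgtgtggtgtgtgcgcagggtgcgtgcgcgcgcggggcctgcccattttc
EPHA7: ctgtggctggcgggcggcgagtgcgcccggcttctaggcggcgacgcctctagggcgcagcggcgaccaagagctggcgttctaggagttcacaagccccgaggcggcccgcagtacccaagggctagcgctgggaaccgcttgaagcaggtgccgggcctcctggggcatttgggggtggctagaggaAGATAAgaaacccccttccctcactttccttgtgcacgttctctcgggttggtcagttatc
SEMA6D: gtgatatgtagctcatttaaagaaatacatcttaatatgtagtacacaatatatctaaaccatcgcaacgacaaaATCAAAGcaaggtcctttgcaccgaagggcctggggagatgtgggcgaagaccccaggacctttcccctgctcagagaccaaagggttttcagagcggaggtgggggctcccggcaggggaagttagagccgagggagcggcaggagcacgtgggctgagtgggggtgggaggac
Windows were found for 57 of the 66 symbols, 89 in all. Both strands were searched for the T-box motif AGGTGTGA, the TCF/LEF motif ATCAAAG and the GATA motif AGATAA, and no window of these genes held more than 1 of the 3. The T-box motif was in 0.786% of 35116 annotated windows of this length and in 0 of the 89. The TCF/LEF motif was in 2.26% of all windows and in 3 of the 89, those of SEMA6D, SEMA3F and SEMA4G. The GATA motif was in 9.17% of all and in 7 of the 89, from 6 genes (EFNA3, EPHA3, EPHA7, ROBO4, SEMA3E and SEMA5B). The SLIT1 window held none of the motifs, and a match is a description of letters only. The median GC content was 65.2% over the 89 windows and 58% over all windows.

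Guidance genes were expressed in every condition. Of the 67 rows, 55 reached 10 CPM and 25 reached 100 CPM in at least 1 condition, and 3 had a mean under 1 CPM in all (EPHA3, NTN3 and ROBO4). Between 31 rows, in the control, and 47, in DE(a)-LM, reached 10 CPM in a given condition. Per kilobase of annotated exon, the highest mean level in the control was that of SEMA6A, a membrane-bound semaphorin, at 45.8 CPM per kb, followed by the Eph receptors EPHA1 at 34.2 and EPHB4 at 32.7. In DE(a)-24h, APS-24h and MPS-24h EPHA2 stood first, at 93.1, 88.3 and 73.7 CPM per kb. The first gene was the plexin PLXNA2 in APS-PM, at 36.8 CPM per kb, and in DE(a)-DE(b), at 72.7, and the netrin receptor UNC5B in MPS-LM, at 85.0. SEMA6A, first in the control, was also first in PPS-24h, at 88.0 CPM per kb, and in PPS-LM, at 105. Some members were high in every condition: EPHB4 ran between 114 and 238 CPM over the 34 libraries and PLXNB2, a receptor of class 4 semaphorins, between 106 and 241.

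**Figure D1:**
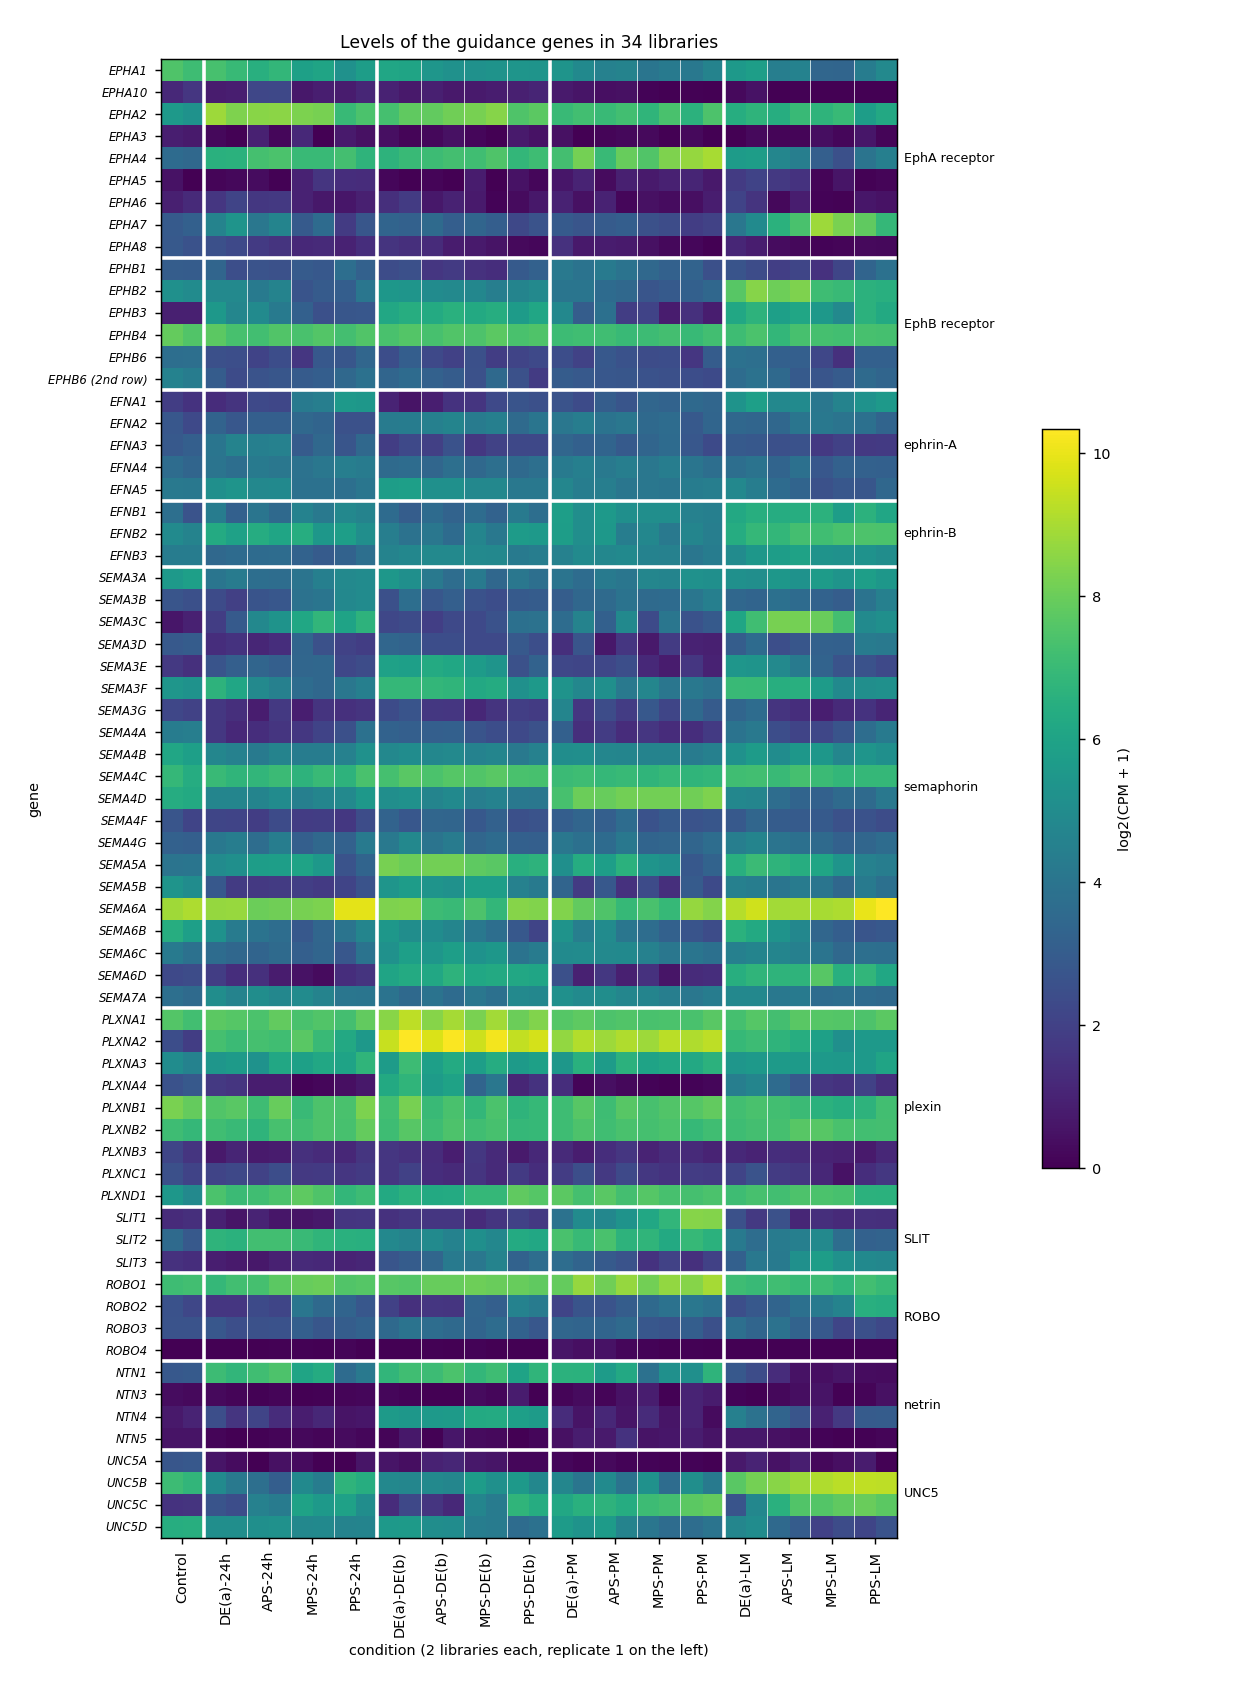
Levels of the 67 guidance gene rows (rows, grouped by family) in 34 libraries (columns, 2 per condition, replicate 1 on the left), as log2(CPM + 1) in colour. Thick lines separate the control, 24 h, DE(b), PM and LM libraries. SLIT1 is bright in the PM libraries, UNC5B, EPHB2 and EFNB2 in the LM libraries, NTN4 in the DE(b) libraries, and PLXNA2 in the DE(b) and PM libraries.

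At 24 h PLXNA2, EPHB3, EPHA2, EPHA4 and SLIT2 had risen in all 4 PS populations, and NTN1 in all but PPS-24h. SEMA5B, UNC5A and UNC5D had fallen in all 4, and SEMA4A and UNC5B in all but PPS-24h. Against the control, 18 of the 66 members rose in DE(a)-24h and 13 fell, where 10.3% of all genes tested rose and 8.68% fell. In APS-24h 18 rose and 17 fell, against 13.6% and 11% of all genes. In MPS-24h 21 rose and 20 fell, against 16.5% and 13.4%, and in PPS-24h 16 rose and 14 fell, against 16.4% and 13.4%. Each share of members was above that of all genes, in both directions. These 4 comparisons share the control libraries, and the median log2 fold change of the members lay between -0.32 and -0.11, against 0 to 0.03 over all genes. Among the 20 semaphorins, 4 to 6 rose and 7 to 10 fell in each population, and among the 9 EphA genes 2 or 3 rose and at most 2 fell.

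Several Eph receptors rose. EPHA2, a receptor of ephrin-A ligands that is abundant in epithelia, stood at 46.6 and 37.3 CPM in the control libraries and at 448 and 323 in DE(a)-24h, 359 and 372 in APS-24h, 315 and 295 in MPS-24h and 126 and 168 in PPS-24h. All 8 PS libraries lay above both control libraries, with log2 fold change 3.29 ± 0.31, adjusted p = 6.46e-08 in DE(a)-24h. EPHA4, which binds both ephrin classes and marks somite boundaries in the embryo, rose from 11.2 and 10.2 CPM to 127 and 127 in MPS-24h (log2 fold change 3.68 ± 0.36, adjusted p = 5.12e-08) and to 150.4 and 106 in PPS-24h (log2 fold change 3.61 ± 0.36, adjusted p = 7.67e-08). EPHB3, a receptor of ephrin-B ligands, was at 0.903 and 0.904 CPM in the control. It rose to 44.6 and 25.9 in DE(a)-24h (log2 fold change 5.37 ± 0.73, adjusted p = 1.1e-05) and to 30.2 and 18.3 in APS-24h (log2 fold change 4.82 ± 0.73, adjusted p = 2.76e-05), and stood lower, at 7.99 and 4.81, and 5.85 and 6.08, in MPS-24h and PPS-24h. EPHA1 and EPHA8 went the other way in PPS-24h: EPHA1 fell from 182 and 139 to 36.3 and 52.9 CPM (log2 fold change -1.83 ± 0.22, adjusted p = 1.69e-06), and EPHA8 fell from 6.47 and 5.01 to 0.988 and 1.58 (log2 fold change -2.14 ± 0.57, adjusted p = 0.00627).

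The ephrin-A ligand EFNA1 followed the posterior end of the streak. Its levels were 2.66 and 1.86 CPM in the control, 1.49 and 1.93 in DE(a)-24h, 3.89 and 3.66 in APS-24h, 17.9 and 20.7 in MPS-24h and 46.4 and 43.2 in PPS-24h. The MPS and PPS libraries overlapped none of the others, and the rise in PPS-24h gave log2 fold change 4.32 ± 0.37, adjusted p = 8.26e-09. EFNA3 and EFNA5 were high at the other end, with EFNA5 at 34.3 and 39.9 CPM in DE(a)-24h and 12.8 and 15.6 in PPS-24h. EFNA4, EFNA3 and EFNA1 lie close together on chromosome 1 of hg38 in GENCODE release 44 (155063737 to 155069553, 155078837 to 155087538 and 155127876 to 155134899, all on the plus strand). Their levels ordered the 4 populations differently, EFNA4 with no call among them (adjusted p = 0.421), EFNA3 high in DE(a)-24h and APS-24h (15.3 and 23.5, and 21.1 and 22.6 CPM, against 6.86 and 10.2 in MPS-24h), and EFNA1 high in MPS-24h and PPS-24h.

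Among the semaphorins, SEMA3C, a secreted ligand of neuropilins and plexins, made the largest rise in APS-24h, MPS-24h and PPS-24h. It stood at 0.547 and 0.957 CPM in the control, 2.65 and 6.66 in DE(a)-24h, 27.6 and 38.8 in APS-24h, 71.3 and 110.5 in MPS-24h and 63.4 and 103 in PPS-24h. The log2 fold changes of the last 3 were 5.56 ± 0.75, 7.03 ± 0.77 and 6.83 ± 0.76, with adjusted p-values of 6.31e-06, 2.77e-07 and 4.58e-07. PLXNA2, a plexin used by class 3 and class 6 semaphorins, was at 4.46 and 2.66 CPM in the control and at 155 and 133, 158 and 141, 208 and 128, and 75.6 and 44.2 in DE(a)-24h, APS-24h, MPS-24h and PPS-24h. It rose in each, from 4.08 ± 0.39 in PPS-24h to 5.65 ± 0.41 in MPS-24h (adjusted p = 4.03e-08 and 5.57e-10), and no PS library came near the control values.

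The losses were larger in count among semaphorins. SEMA5B, a membrane protein that inhibits axons, fell from 40.5 and 31.5 CPM to 6.13 and 2.47 in DE(a)-24h, 2.27 and 2.52 in APS-24h, 2.78 and 2.40 in MPS-24h and 3.36 and 5.19 in PPS-24h. Its log2 fold changes were -2.97 ± 0.53, -3.82 ± 0.56, -3.69 ± 0.55 and -3.06 ± 0.53, with adjusted p-values of 0.000253, 1.71e-05, 1.81e-05 and 0.00013. SEMA4A, a membrane-bound class 4 semaphorin, fell from 19.1 and 20.6 CPM to 2.18 and 1.29 in DE(a)-24h (log2 fold change -3.42 ± 0.56, adjusted p = 0.000101), 1.56 and 2.01 in APS-24h (log2 fold change -3.39 ± 0.56, adjusted p = 7.67e-05) and 2.22 and 3.29 in MPS-24h (log2 fold change -2.76 ± 0.54, adjusted p = 0.000388). The PPS-24h libraries held 4.73 and 13.7 and were not called (adjusted p = 0.109). SEMA6B, a membrane-bound ligand of plexin-A receptors, fell from 87.0 and 55.6 to 6.30 and 9.56 CPM in MPS-24h (log2 fold change -3.07 ± 0.40, adjusted p = 3.64e-06). SEMA3D, a secreted class 3 semaphorin, fell from 6.43 and 7.13 to 1.56 and 1.88 CPM in DE(a)-24h (log2 fold change -1.88 ± 0.56, adjusted p = 0.0199). PLXNA4, a plexin-A receptor, fell from 5.01 and 6.43 CPM to 0.757 and 0.778 in APS-24h (log2 fold change -2.81 ± 0.54, adjusted p = 0.000435) and to 0.346 and 0.602 in PPS-24h (log2 fold change -3.58 ± 0.59, adjusted p = 7.13e-05). In MPS-24h it held at most 3 counts in each library, at least 41.3-fold lower than in the control when set against that floor (adjusted p = 3.03e-06).

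SLIT2, a secreted repellent that binds ROBO1 and ROBO2, rose in all 4 populations. It stood at 10.8 and 6.49 CPM in the control and at 106 and 95.2, 149 and 149, 126 and 107, and 94.3 and 89.95 in DE(a)-24h, APS-24h, MPS-24h and PPS-24h. The groups did not overlap, with log2 fold change 3.63 ± 0.32, adjusted p = 2.69e-08 in DE(a)-24h, log2 fold change 4.18 ± 0.33, adjusted p = 2.86e-09 in APS-24h and log2 fold change 3.85 ± 0.32, adjusted p = 5.84e-09 in MPS-24h. SLIT1 and SLIT3 were low in the control and at 24 h. Their highest values there were 2.03 and 2.11 CPM in PPS-24h for SLIT1 and 1.76 and 1.54 in the control for SLIT3. The receptor ROBO1 was present in undifferentiated cells, at 139.6 and 148 CPM in the control, and was higher, at 248 and 259, in MPS-24h (log2 fold change 0.91 ± 0.23, adjusted p = 0.00445).

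Among the netrins and their receptors, NTN1, a secreted cue that binds DCC and UNC5 proteins, rose from 6.29 and 6.61 CPM in the control to 135 and 109.7 in DE(a)-24h (log2 fold change 4.34 ± 0.50, adjusted p = 1.03e-06) and 143 and 174 in APS-24h (log2 fold change 4.70 ± 0.50, adjusted p = 2.92e-07). Its level was 64.6 and 81.9 in MPS-24h and 11.2 and 17.1 in PPS-24h, where the rise was not called (adjusted p = 0.065). The UNC5 receptors moved in both directions: UNC5C was gained, UNC5A and UNC5D fell in all 4 populations, and UNC5B fell in all but PPS-24h. UNC5C stood at 1.85 and 1.97 CPM in the control, 5.43 and 4.51 in DE(a)-24h, 22.1 and 18.9 in APS-24h, 60.4 and 45.9 in MPS-24h and 59.8 and 32.8 in PPS-24h, rising in MPS-24h (log2 fold change 4.90 ± 0.58, adjusted p = 9.04e-07), PPS-24h (log2 fold change 4.62 ± 0.58, adjusted p = 2.17e-06) and APS-24h (adjusted p = 6.29e-05) but not called in DE(a)-24h (adjusted p = 0.0875). UNC5B, also a receptor of endothelial cells, fell from 134 and 112 CPM to 30.1 and 17.2 in DE(a)-24h (log2 fold change -2.29 ± 0.45, adjusted p = 0.000649) and 12.54 and 7.60 in APS-24h (log2 fold change -3.53 ± 0.47, adjusted p = 6.41e-06), while PPS-24h held 105 and 86.8 (adjusted p = 0.588). UNC5A fell from 5.83 and 6.26 CPM to 0.519 and 0.268, 0 and 0.366, 0.217 and 0, and 0 and 0.482 in DE(a)-24h, APS-24h, MPS-24h and PPS-24h. Its log2 fold changes of -3.83 ± 1.20, -4.91 ± 1.28, -5.58 ± 1.34 and -4.65 ± 1.27 rest on few counts, with adjusted p-values of 0.0277, 0.00642, 0.00276 and 0.00788. Leaving out 1 library ended the call of UNC5A in DE(a)-24h for each of the 4 libraries (adjusted p up to 0.179), in APS-24h without APS-24h replicate 1 (0.0674) and in PPS-24h without PPS-24h replicate 1 (0.0674), that of SEMA3D in DE(a)-24h for each of 4 libraries (up to 0.1299), and that of EPHA8 in PPS-24h without its replicate 1 (0.0671).

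**Figure D2:**
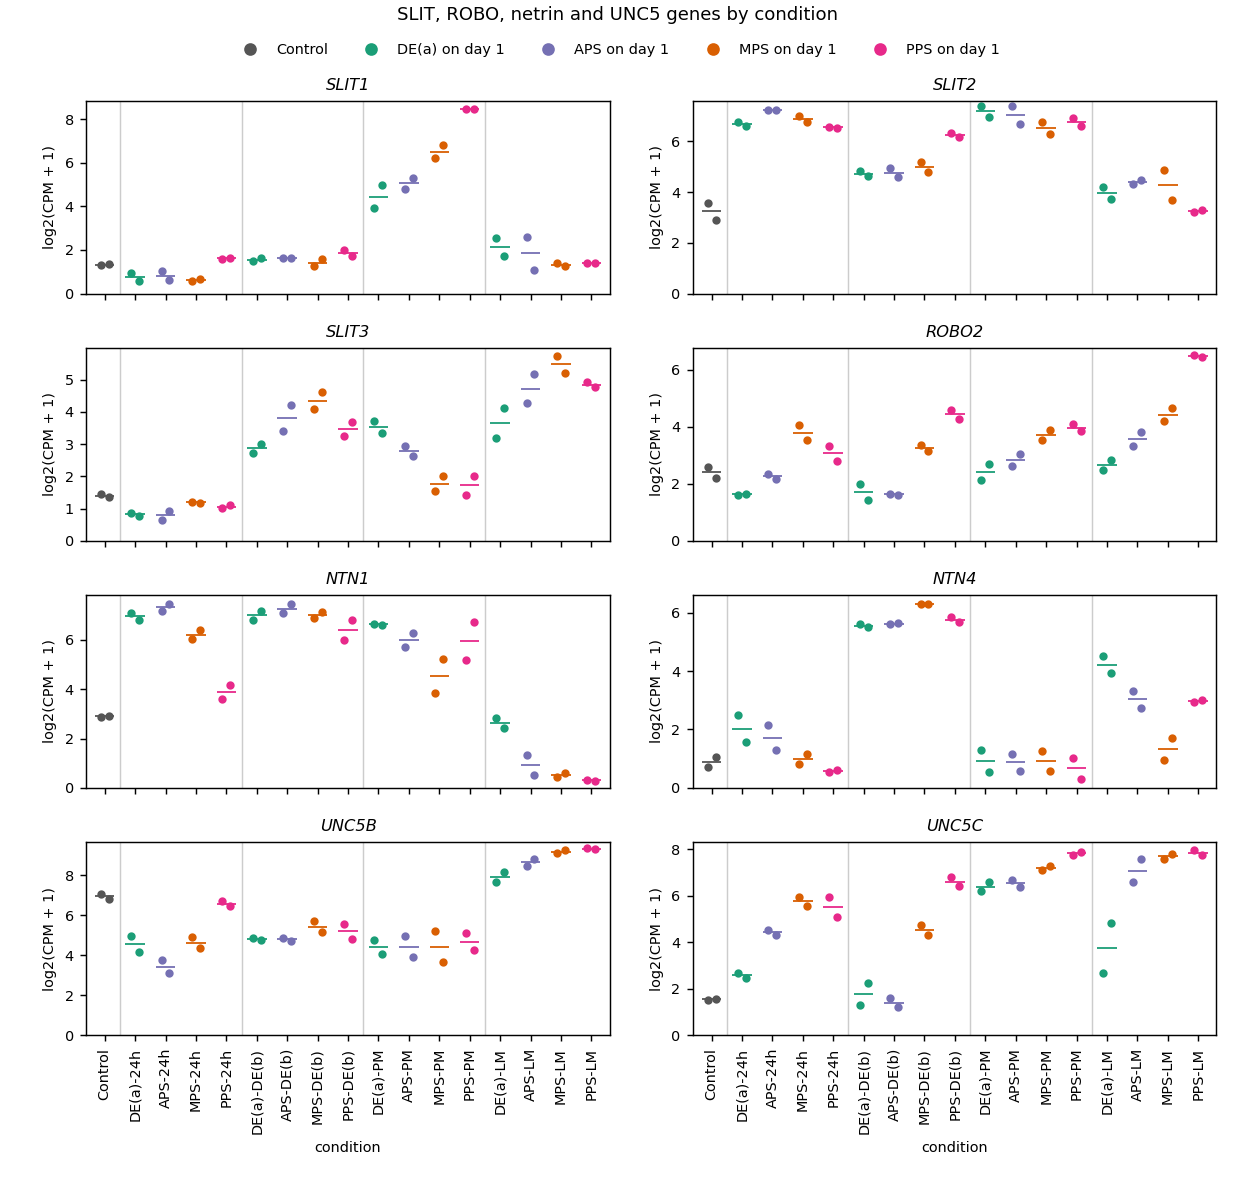
Levels of 8 SLIT, ROBO, netrin and UNC5 genes in each library, as log2(CPM + 1), by condition, with a bar at the mean of the 2 libraries on that scale and colours for the day 1 treatment. SLIT2 is high at 24 h and in PM medium, SLIT1 is high in PM medium alone and climbs from DE(a)-PM to PPS-PM, NTN4 is highest in DE(b) medium, UNC5B is highest in LM medium, and NTN1 is lowest in APS-LM, MPS-LM and PPS-LM.

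The 4 PS populations differed from one another in 29 of the 66 members, against 18.8% of all genes. From the anterior to the posterior streak, EFNA1 and SEMA3B increased, while EFNA5, SEMA3F and NTN1 were lower at the posterior end. EFNA1, described above, had the smallest adjusted p (9.09e-09). SEMA3F, a secreted ligand of neuropilin 2, stood at 102 and 68.2 CPM in DE(a)-24h, 28.1 and 21.8 in APS-24h, 11.7 and 9.86 in MPS-24h and 16.3 and 21.1 in PPS-24h (adjusted p = 2.92e-07). SEMA3B, which lies near SEMA3F on chromosome 3, went the other way, with 4.15 and 2.92, 5.39 and 6.09, 13.7 and 15.2, and 27.3 and 30.9 CPM in the same order (adjusted p = 1.41e-06). SEMA6A held 423 and 423, 257 and 270.1, 298 and 319, and 959 and 961 CPM (adjusted p = 2.83e-06), and both PPS-24h libraries lay above all others. EFNA5 held 34.3 and 39.9, 27.4 and 28.9, 13.7 and 13.3, and 12.8 and 15.6 CPM (adjusted p = 1.18e-05). SEMA5A, a semaphorin with thrombospondin repeats, held 31.2 and 34.9, 52.9 and 54.3, 62.5 and 44.9, and 5.29 and 9.21 CPM, low in PPS-24h alone (adjusted p = 1.27e-05).

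Single steps along the streak called few members. Between DE(a)-24h and APS-24h only SEMA3C was higher (log2 fold change 2.82 ± 0.60, adjusted p = 0.0231) and only SEMA3F lower (log2 fold change -1.78 ± 0.29, adjusted p = 0.0016), where 0.609% of all genes were higher and 0.123% lower in APS-24h. Neither was called without DE(a)-24h replicate 1 or without APS-24h replicate 2, with adjusted p-values of up to 0.503 for SEMA3C and 0.077 for SEMA3F, and SEMA3C was also not called without DE(a)-24h replicate 2 (0.0554). With BMP4 and more CHIR, in MPS-24h against APS-24h, 4 members were higher (SEMA3D, EFNA1, ROBO2 and SEMA3B) and 4 lower (EPHB2, EFNA3, SEMA3F and EFNA5), against 1.89% and 1.03% of all genes. EFNA1 gave log2 fold change 2.37 ± 0.34, adjusted p = 0.000183. ROBO2, a SLIT receptor, stood at 4.07 and 3.52 CPM in APS-24h and 15.6 and 10.5 in MPS-24h (log2 fold change 1.80 ± 0.32, adjusted p = 0.0019). EPHB2, a receptor of ephrin-B ligands, stood at 17.5 and 24.0 in APS-24h and 5.38 and 6.94 in MPS-24h (log2 fold change -1.74 ± 0.28, adjusted p = 0.000613). SEMA3D stood at 1.14 and 1.56 CPM in APS-24h and 9.46 and 4.91 in MPS-24h (log2 fold change 2.43 ± 0.57, adjusted p = 0.018), and the other 4 members changed by 1.35 (SEMA3B), -1.35 (EFNA3), -1.19 (SEMA3F) and -1.04 (EFNA5) on the log2 scale, with adjusted p-values of 0.0183, 0.0225, 0.0243 and 0.00516. The calls of all but EFNA1 and EPHB2 ended without at least 1 library, that of ROBO2 only without APS-24h replicate 2 (adjusted p = 0.0501). Leaving out any 1 of the 4 libraries left 2 to 4 members called in place of 8.

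Without activin, in PPS-24h against MPS-24h, 3 members were higher and 8 lower, against 2.79% and 3.35% of all genes. Those higher were UNC5B (log2 fold change 1.90 ± 0.44, adjusted p = 0.0112), SEMA6A (log2 fold change 1.56 ± 0.21, adjusted p = 8.44e-05) and EFNA1 (log2 fold change 1.14 ± 0.31, adjusted p = 0.0312). The lower members included SEMA5A (log2 fold change -2.98 ± 0.36, adjusted p = 1.96e-05), NTN1 (log2 fold change -2.45 ± 0.45, adjusted p = 0.00187), PLXNA2 (log2 fold change -1.56 ± 0.33, adjusted p = 0.00541), SEMA3E (log2 fold change -1.40 ± 0.31, adjusted p = 0.00773) and EPHA2 (log2 fold change -1.13 ± 0.29, adjusted p = 0.0192). SEMA3E, the secreted ligand of PLXND1, stood at 9.57 and 10.1 CPM in MPS-24h and 3.57 and 4.31 in PPS-24h. The other 3 that were lower were EFNA2, PLXND1 and SEMA7A, at -1.03, -0.74 and -0.88 on the log2 scale. SEMA6A, SEMA5A and NTN1 kept their calls whichever of the 4 libraries was left out, while UNC5B, EFNA1, PLXNA2, SEMA3E and EPHA2 lost theirs without at least 2 of them. Without MPS-24h replicate 1, 3 members were called in place of 11, so EFNA2, PLXND1 and SEMA7A also lost their calls there. Without PPS-24h replicate 2, 4 members were called. In PPS-24h the 6 amnion markers TFAP2A, GATA3, ISL1, GABRP, VTCN1 and IGFBP3 summed to 129 and 161 CPM, against 66.8 and 79.6 in MPS-24h and 28.7 and 19.4 in DE(a)-24h. From MPS-24h to PPS-24h the means of TFAP2A, GATA3 and ISL1 were higher, TFAP2A at 7.45 and 55.0. The other 3 were lower, IGFBP3 at 10.7 and 1.76, GABRP at 2.91 and 0.666, and VTCN1 at 0.16 and 0.0548. Their part in these differences was not tested.

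**Figure D3:**
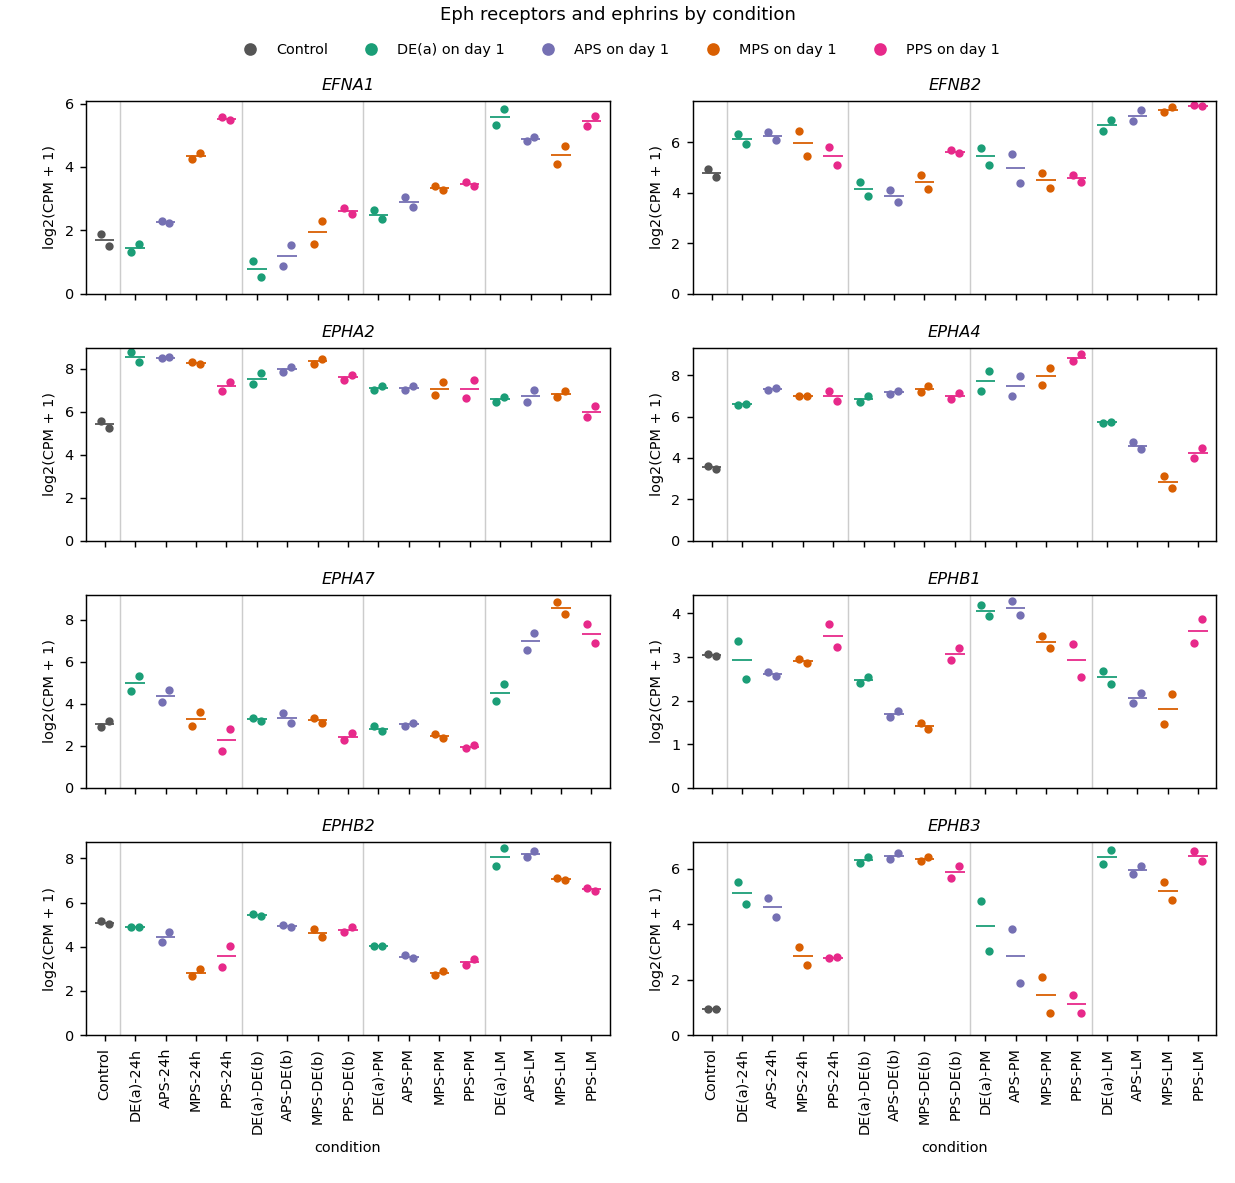
Levels of 8 ephrin and Eph receptor genes in each library, as log2(CPM + 1), by condition, with a bar at the mean of the 2 libraries on that scale and colours for the day 1 treatment. EPHA4 is low in the control and in LM medium and highest in PPS-PM, while EFNA1, EFNB2, EPHA7 and EPHB2 reach their highest values in LM medium.

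In the standard endoderm protocol, DE(a)-DE(b) cells gained semaphorins and the receptor PLXNA4. Against DE(a)-24h, 19 members rose and 9 fell, with 14.5% and 13.5% of all genes, and 11 of the 20 semaphorins were among the rises while 1 fell. PLXNA4 rose from 2.33 and 1.99 to 76.6 and 109 CPM (log2 fold change 5.35 ± 0.54, adjusted p = 3.42e-07). SEMA6D, a membrane-bound semaphorin known from heart development, rose from 2.64 and 1.56 to 64.9 and 79.3 CPM (log2 fold change 5.02 ± 0.54, adjusted p = 6.66e-07). NTN4, a netrin that binds laminin in basement membranes, rose from 4.61 and 1.99 to 48.2 and 43.97 CPM (log2 fold change 3.73 ± 0.53, adjusted p = 2.16e-05). None of these 3 overlapped between the groups. SEMA5B rose from 6.13 and 2.47 to 41.3 and 51.1 CPM (log2 fold change 3.35 ± 0.54, adjusted p = 7.22e-05), where the control held 40.5 and 31.5, and SEMA3E rose from 5.47 and 7.82 to 59.4 and 55.5 (log2 fold change 3.03 ± 0.31, adjusted p = 3.87e-07). The falls were EFNA3, from 15.3 and 23.5 to 2.71 and 3.84 CPM (log2 fold change -2.64 ± 0.35, adjusted p = 7.69e-06), the ephrin-B ligand EFNB2, from 80.0 and 60.3 to 20.7 and 13.7 (log2 fold change -2.10 ± 0.39, adjusted p = 0.000317), SLIT2, from 106 and 95.2 to 27.4 and 23.6 (log2 fold change -2.05 ± 0.30, adjusted p = 2.38e-05), EPHA7, from 23.7 and 39.5 to 9.04 and 8.14 (log2 fold change -1.95 ± 0.40, adjusted p = 0.000989), and SEMA7A, a membrane-anchored semaphorin, from 32.4 and 24.0 to 14.3 and 10.6 (log2 fold change -1.25 ± 0.20, adjusted p = 6.19e-05), with EFNA1, EPHA1, EPHA2 and PLXND1 also called.

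In the standard paraxial protocol, APS-PM cells gained SLIT ligands and SEMA4D, and several EphA receptors were lower. Against APS-24h, 15 members rose and 13 fell, with 11.9% and 13.2% of all genes. Of the 9 EphA genes 5 fell and 0 rose, and of the 6 EphB rows 2 fell and 1 rose. SLIT1 rose from 1.04 and 0.549 to 27.0 and 38.6 CPM (log2 fold change 5.26 ± 0.51, adjusted p = 1.45e-07), and SEMA4D, the membrane-bound ligand of PLXNB1, from 24.5 and 31.0 to 247 and 279.9 (log2 fold change 3.14 ± 0.24, adjusted p = 9.97e-09). The groups did not overlap for either gene. SLIT3 rose from 0.568 and 0.9155 to 6.71 and 5.25 CPM (log2 fold change 2.89 ± 0.46, adjusted p = 6.04e-05), UNC5C from 22.1 and 18.9 to 101 and 82.8 (log2 fold change 2.06 ± 0.48, adjusted p = 0.00265) and PLXNA2 from 158 and 141 to 459 and 560.1 (log2 fold change 1.67 ± 0.33, adjusted p = 0.000609). Of the falls, EPHA1 went from 90.6 and 113 to 22.1 and 23.8 CPM (log2 fold change -2.25 ± 0.23, adjusted p = 2.47e-07), EPHA2 from 359 and 372 to 129 and 146 (log2 fold change -1.51 ± 0.29, adjusted p = 0.000442), EFNA3 from 21.1 and 22.6 to 9.16 and 6.68 (log2 fold change -1.56 ± 0.33, adjusted p = 0.00107) and EPHA7 from 16.1 and 24.4 to 6.73 and 7.64 (log2 fold change -1.59 ± 0.40, adjusted p = 0.00526). EPHB3 went from 30.2 and 18.3 to 13.1 and 2.65 CPM (log2 fold change -1.74 ± 0.58, adjusted p = 0.0312), a call that ended without APS-24h replicate 1 (adjusted p = 0.199) or APS-PM replicate 2 (0.297), as that of EPHA7 did without APS-24h replicate 2 (0.0709). Without APS-24h replicate 1, and also without APS-PM replicate 2, 18 members were called in place of 28.

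In the standard lateral protocol, MPS-LM cells gained SEMA6D, EPHA7, EPHB2, SLIT3 and UNC5B and lost NTN1 and EPHA4. Against MPS-24h, 17 members rose and 19 fell, with 14.4% and 16.9% of all genes, and all 3 ephrin-B ligands rose while 6 of the 9 EphA genes fell. SEMA6D rose from 0.434 and 0.245 to 198 and 91.6 CPM (log2 fold change 8.66 ± 0.67, adjusted p = 3.44e-09). EPHA7, a receptor of ephrin-A ligands, rose from 6.69 and 11.4 to 457 and 308 CPM (log2 fold change 5.39 ± 0.45, adjusted p = 1.04e-08), and EPHB2 rose from 5.38 and 6.94 to 139 and 128 (log2 fold change 4.42 ± 0.30, adjusted p = 5.34e-10). In each of these the groups lay far apart. SLIT3, a SLIT ligand of mesenchyme, rose from 1.33 and 1.28 to 52.4 and 36.4 CPM (log2 fold change 5.05 ± 0.46, adjusted p = 2.93e-08), and UNC5B rose from 29.3 and 19.5 to 553 and 610.2 (log2 fold change 4.56 ± 0.49, adjusted p = 2.61e-07). NTN1 fell from 64.6 and 81.9 to 0.349 and 0.522 CPM (log2 fold change -7.36 ± 0.65, adjusted p = 1.81e-08) and EPHA4 from 127 and 127 to 7.81 and 4.83 (log2 fold change -4.36 ± 0.37, adjusted p = 1.25e-08). UNC5D fell from 27.5 and 28.8 to 2.97 and 4.27 CPM (log2 fold change -2.95 ± 0.29, adjusted p = 7.02e-08), EPHA1 from 58.4 and 64.6 to 9.72 and 9.45 (log2 fold change -2.69 ± 0.24, adjusted p = 1.81e-08) and SLIT2 from 126 and 107 to 28.1 and 11.9 (log2 fold change -2.58 ± 0.30, adjusted p = 9.47e-07).

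Averaged over the 4 day 1 treatments, NTN4, PLXNA4 and SEMA3E were highest in DE(b) medium, SLIT1 and SEMA4D in PM medium, and EPHA7, EPHB2, UNC5B, EFNA1 and the ephrin-B ligands in LM medium. In DE(b) against PM medium 29 members were higher and 20 lower, with 21.4% and 21.6% of all genes. In LM against PM medium 27 were higher and 20 lower, with 21% and 21%, and in LM against DE(b) medium 21 were higher and 24 lower, with 19.8% and 19.8%. These 3 comparisons share libraries. Over the 8 libraries of each medium, all DE(b) libraries lay above all PM libraries for 10 members and below them for 3, against 5.15% and 6.52% of all genes. For LM against PM these counts were 12 and 7, against 5% and 6.62%, and for LM against DE(b) 9 and 9, against 3.98% and 4.08%. The 8 libraries of a medium came from different day 1 treatments, so their lowest, median and highest values are given.

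**Figure D4:**
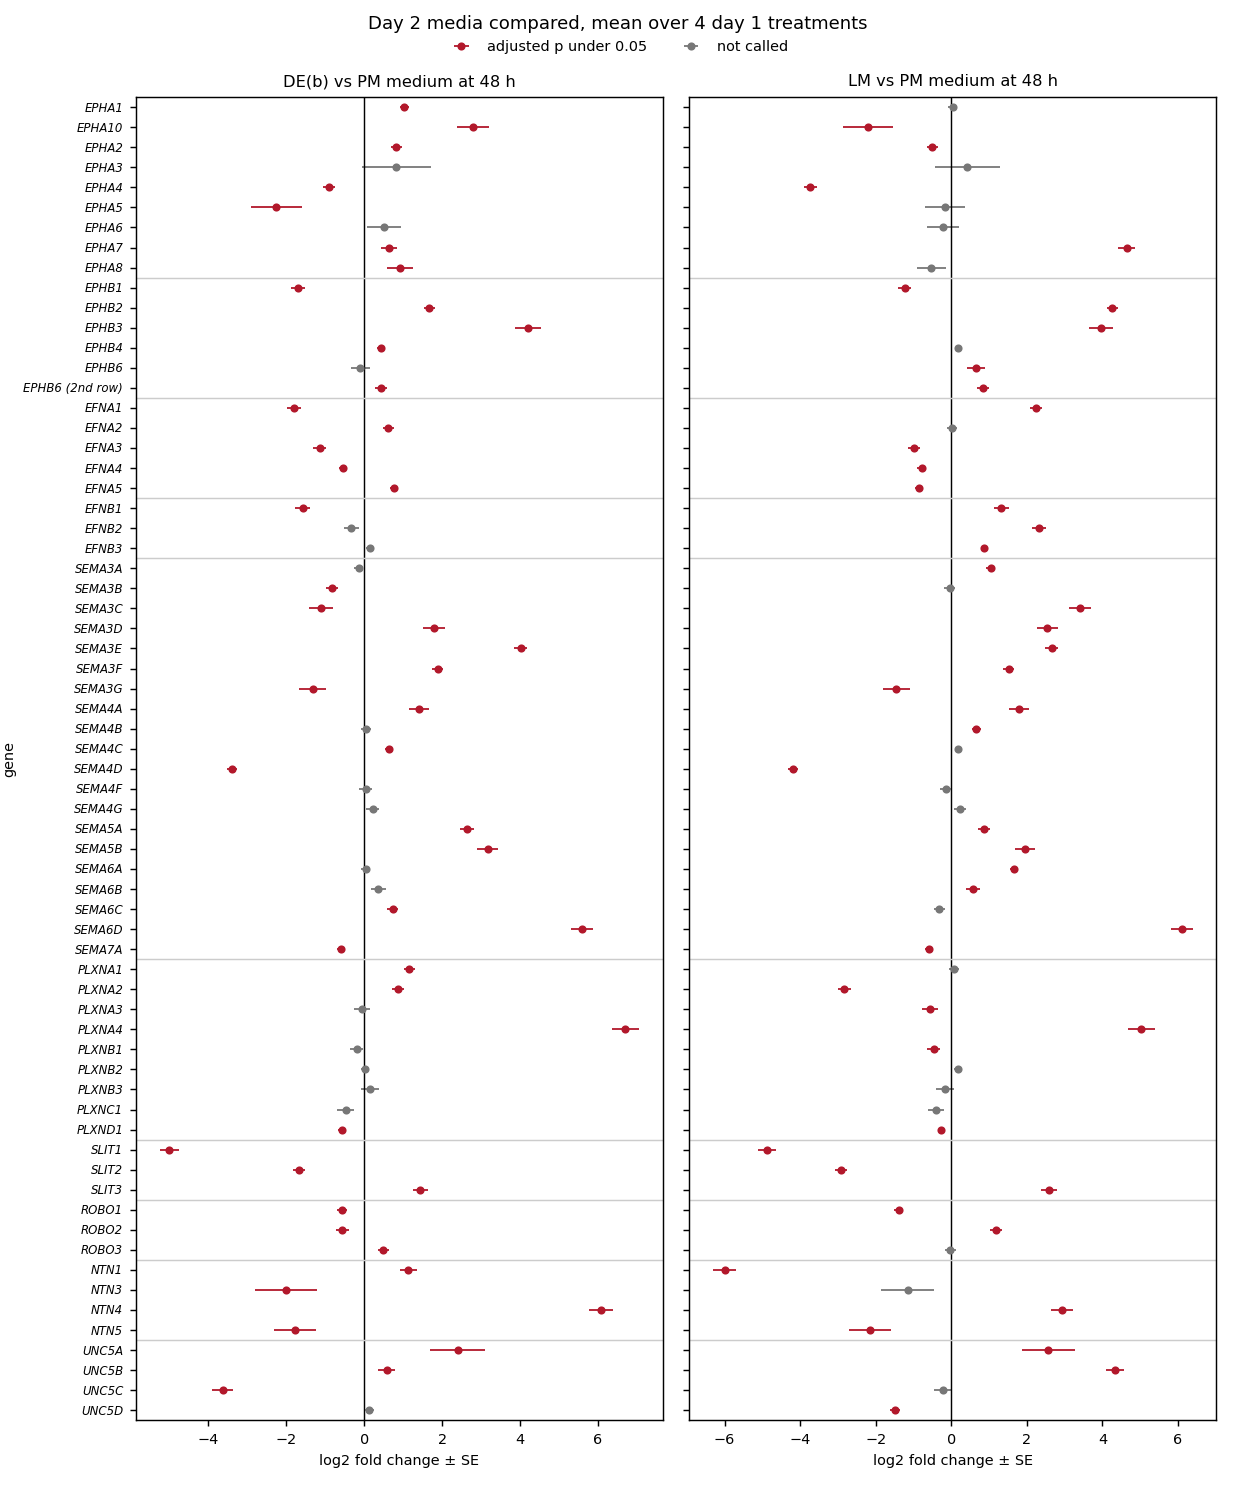
Log2 fold changes ± SE of the 66 tested members in DE(b) against PM medium (left) and in LM against PM medium (right), each the mean of 4 differences after the same day 1 treatment, with members called at an adjusted p under 0.05 in red. SEMA6D, PLXNA4 and EPHB3 lie far to the right in both panels, SLIT1 and SEMA4D far to the left in both, and NTN1 far to the left for LM alone.

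Among the day 2 media, PM was marked by SLIT1 and SEMA4D, though SEMA4D was also high in the control. SLIT1 ran at 14.1, 55.9 and 349 CPM (lowest, median and highest) in PM medium, against 1.39, 2.08 and 3.05 in DE(b) and 1.13, 1.66 and 5.00 in LM medium. No PM library overlapped the others, with log2 fold change -5.01 ± 0.24, adjusted p = 1.53e-13 for DE(b) against PM and log2 fold change -4.88 ± 0.24, adjusted p = 1.99e-13 for LM against PM. SEMA4D ran at 161, 276 and 327 CPM in PM, 16.4, 23.44 and 36.5 in DE(b) and 8.36, 11.49 and 27.0 in LM medium, with log2 fold change -3.39 ± 0.12, adjusted p = 1.66e-15 and log2 fold change -4.18 ± 0.13, adjusted p = 2.09e-16. Its receptor PLXNB1 ran at 138, 189 and 230.4, 106, 139 and 297, and 86.3, 139 and 166 in the same order. The media overlapped, and the difference between LM and PM was small (log2 fold change -0.47 ± 0.17, adjusted p = 0.0282). EPHB1, a receptor of ephrin-B ligands, was lower in DE(b) than in PM medium, at 1.55, 3.34 and 8.26 against 4.81, 12.3 and 18.4 CPM (log2 fold change -1.69 ± 0.18, adjusted p = 7.1e-08), with overlap. SLIT2 ran at 75.9, 114 and 165 CPM in PM and 8.27, 14.8 and 28.1 in LM medium, without overlap (log2 fold change -2.92 ± 0.15, adjusted p = 7.59e-13), and ROBO1 at 238, 378 and 497, and 112, 132 and 147, also without overlap (log2 fold change -1.39 ± 0.12, adjusted p = 1.99e-09).

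In DE(b) medium NTN4 stood apart from both other media, while PLXNA4 and SEMA3E overlapped with LM medium. NTN4 ran at 43.97, 49.3 and 78.0 CPM in DE(b) medium, 0.238, 0.775 and 1.46 in PM and 0.931, 6.91 and 21.8 in LM medium. The DE(b) libraries overlapped neither of the others, with log2 fold change 6.07 ± 0.31, adjusted p = 3.93e-13 against PM and log2 fold change -3.14 ± 0.26, adjusted p = 1.29e-09 for LM against DE(b). SEMA3E ran at 4.90, 53.2 and 79.9 CPM in DE(b) and 0.725, 2.79 and 4.65 in PM medium (log2 fold change 4.01 ± 0.17, adjusted p = 1.75e-14), again without overlap, and at 3.83, 13.5 and 42.1 in LM medium, with overlap (log2 fold change -1.36 ± 0.15, adjusted p = 1.08e-07). PLXNA4 ran at 1.15, 32.9 and 109 CPM in DE(b), 0, 0.127 and 1.55 in PM and 1.64, 4.72 and 24.9 in LM medium. It gave log2 fold change 6.70 ± 0.35, adjusted p = 6.49e-13 for DE(b) against PM and log2 fold change 5.03 ± 0.36, adjusted p = 9.78e-11 for LM against PM, and the only overlap between DE(b) and PM was PPS-DE(b) replicate 1 below DE(a)-PM replicate 1. PLXNA2 ran at 666, 846 and 1299 CPM in DE(b), 411, 556 and 640 in PM and 34.8, 72.7 and 135 in LM medium. It was thus low in LM medium alone (log2 fold change -3.69 ± 0.18, adjusted p = 1.66e-13 for LM against DE(b)). SEMA5A ran at 90.6, 237 and 298, 6.23, 37.4 and 97.5, and 19.9, 77.0 and 130.04 in the same order (log2 fold change -1.76 ± 0.17, adjusted p = 1.05e-08 for LM against DE(b)), and DE(b) overlapped both other media.

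Some genes were shared by DE(b) and LM medium against PM medium. SEMA6D ran at 64.9, 73.2 and 103 CPM in DE(b), 71.5, 106 and 198 in LM and 0.502, 1.48 and 4.74 in PM medium, with log2 fold change 5.58 ± 0.28, adjusted p = 2.93e-13 and log2 fold change 6.10 ± 0.28, adjusted p = 8.93e-14 against PM. LM and DE(b) medium overlapped and their difference was not called (log2 fold change 0.51 ± 0.21, adjusted p = 0.0616). EPHB3 ran at 50.0, 78.2 and 93.5, 28.3, 69.9 and 101, and 0.725, 2.96 and 27.5 CPM in the same order, with log2 fold change 4.20 ± 0.33, adjusted p = 4.48e-10 and log2 fold change 3.97 ± 0.32, adjusted p = 1.02e-09. These genes thus separated PM from both other media, while EPHA4, NTN1 and UNC5C differed between other pairs. EPHA4 ran at 127, 270.3 and 512 CPM in PM, 103, 138 and 180.0 in DE(b) and 4.83, 20.9 and 53.1 in LM medium, with LM below all others (log2 fold change -3.73 ± 0.18, adjusted p = 1.35e-13 against PM and log2 fold change -2.82 ± 0.17, adjusted p = 7.83e-12 against DE(b)). NTN1 ran at 62.2, 125 and 171 CPM in DE(b), 13.5, 62.7 and 105 in PM and 0.219, 0.476 and 6.11 in LM medium, without overlap for LM (log2 fold change -5.99 ± 0.31, adjusted p = 4.37e-13 and log2 fold change -7.12 ± 0.31, adjusted p = 3.26e-14). UNC5C was low in DE(b) medium, at 1.28, 11.2 and 109 CPM against 72.3, 119 and 236 in PM (log2 fold change -3.63 ± 0.27, adjusted p = 1.86e-10) and 5.35, 187 and 248 in LM medium (log2 fold change 3.40 ± 0.27, adjusted p = 5.47e-10), with overlap in both.

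Higher in LM medium were EFNA1 and the ephrin-B ligands, the receptors EPHB2 and EPHA7, SEMA3C and UNC5B. EPHB2 ran at 91.7, 169 and 348 CPM in LM, 20.8, 28.4 and 43.0 in DE(b) and 5.54, 10.1 and 15.3 in PM medium, and the 3 media did not overlap (log2 fold change 4.26 ± 0.15, adjusted p = 7.94e-16). EPHA7 ran at 16.4, 140.4 and 457 CPM in LM, 3.80, 7.80 and 10.8 in DE(b) and 2.68, 5.27 and 7.64 in PM medium, with log2 fold change 4.65 ± 0.22, adjusted p = 1.73e-13 against PM and log2 fold change 4.01 ± 0.22, adjusted p = 1.07e-12 against DE(b). Among the ligands, EFNA1 ran at 16.0, 33.95 and 55.8 CPM in LM and 0.441, 1.93 and 5.46 in DE(b) medium (log2 fold change 4.05 ± 0.18, adjusted p = 6.57e-14), and was also lower in DE(b) than in PM medium, which held 4.10, 8.02 and 10.6 (log2 fold change -1.81 ± 0.18, adjusted p = 2.17e-08). Of the other ephrin-A ligands EFNA3, EFNA4 and EFNA5 were lower in LM than in PM medium, at -0.99, -0.79 and -0.85 on the log2 scale (adjusted p = 4.44e-05, 6e-06 and 7.62e-07), and EFNA2 was not called (adjusted p = 0.948). EFNB1, EFNB2 and EFNB3 were all higher in LM than in PM medium, EFNB2 with 84.9, 149 and 174 against 17.2, 25.8 and 53.4 CPM (log2 fold change 2.32 ± 0.19, adjusted p = 1.39e-09). SEMA3C ran at 29.5, 147 and 300.4 CPM in LM and 2.78, 4.00 and 13.8 in DE(b) medium (log2 fold change 4.51 ± 0.32, adjusted p = 1.01e-10). UNC5B ran at 205, 504 and 655 CPM in LM, 25.6, 28.1 and 50.9 in DE(b) and 11.48, 22.1 and 36.5 in PM medium, without overlap (log2 fold change 4.33 ± 0.24, adjusted p = 1.89e-12 and log2 fold change 3.76 ± 0.24, adjusted p = 1.25e-11).

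EFNB2 and UNC5B are also known from endothelial cells. Of the endothelial markers KDR, CDH5, PECAM1, TEK and TIE1, summed at 336 to 1579 CPM in the LM libraries against 64.7 to 119.5 in the DE(b) and 38.9 to 139 in the PM libraries, nearly all came from KDR and TEK. CDH5 and PECAM1, the defining markers of mature endothelium, averaged at most 0.716 and 0.716 CPM in the LM conditions, both in DE(a)-LM. The amnion markers also moved with LM medium, at 102 to 1156 CPM against 2.98 to 25.1 in DE(b) and 1.66 to 13.7 in PM libraries. For 5 of these 6 markers the highest mean was in PPS-LM, and for GATA3 in DE(a)-LM. Their part in the differences between media was not tested.

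**Figure D5:**
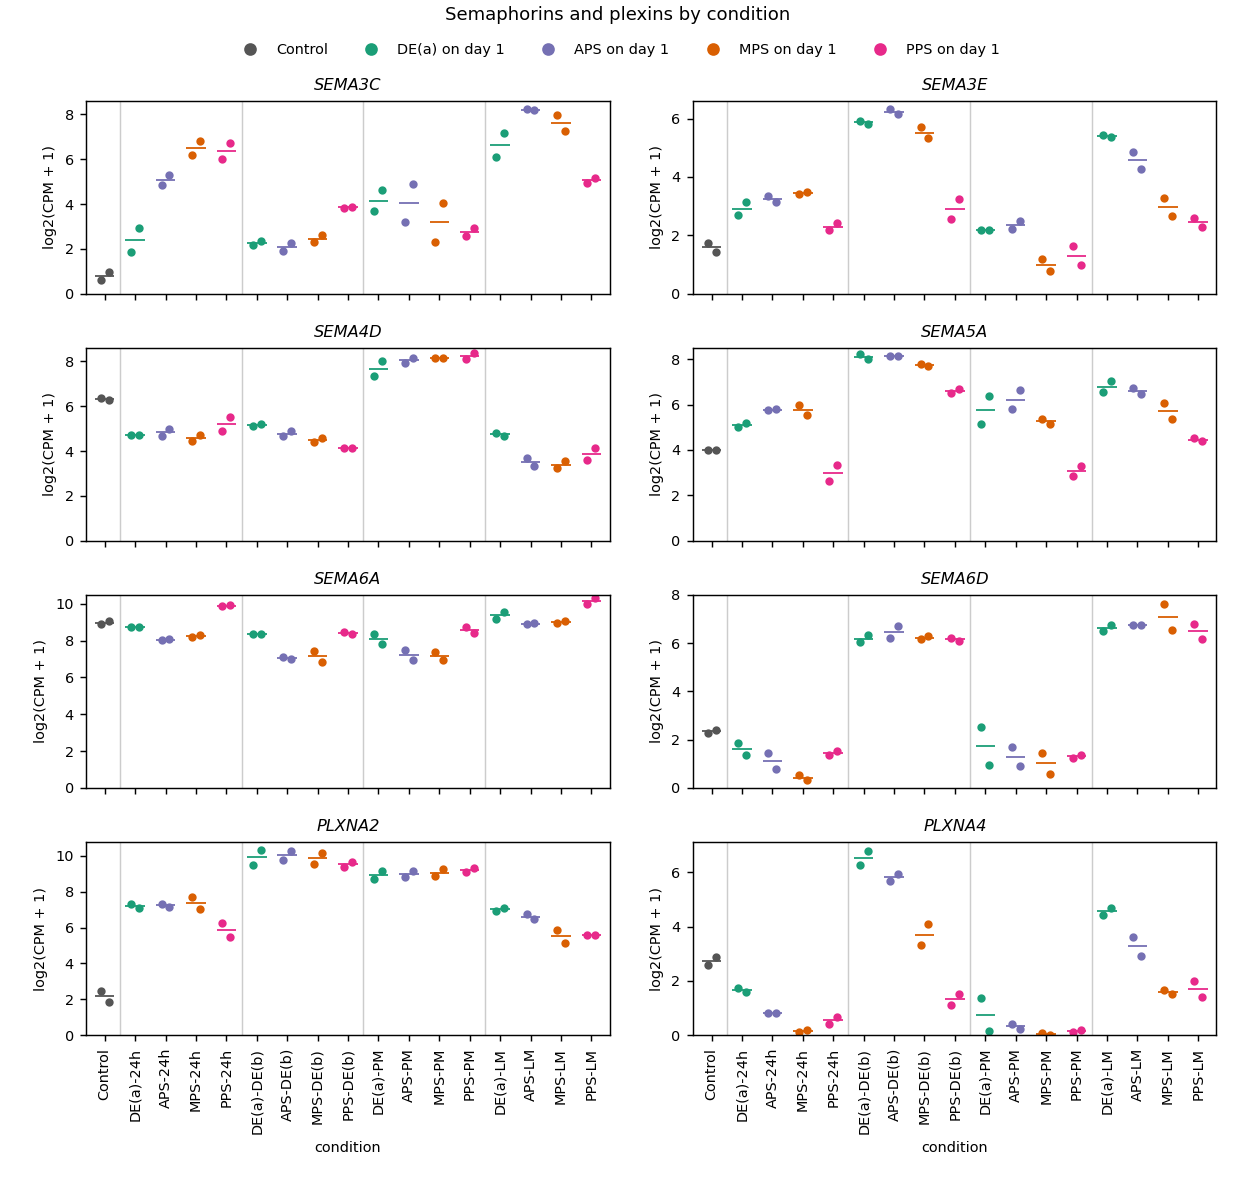
Levels of 6 semaphorins and 2 plexins in each library, as log2(CPM + 1), by condition, with a bar at the mean of the 2 libraries on that scale and colours for the day 1 treatment. PLXNA4 and SEMA3E step down from DE(a)-DE(b) or APS-DE(b) to PPS-DE(b), SEMA4D is high in the control and in PM medium, and SEMA6D is high in DE(b) and LM medium after each day 1 treatment.

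Guidance genes also differed between day 1 treatments at 48 h. In DE(b) medium 25 members differed among the day 1 treatments, against 16.6% of all genes, in PM medium 21, against 7.47%, and in LM medium 39, against 19.6%. Values below are given in the order DE(a), APS, MPS and PPS on day 1. After DE(b) medium UNC5C stood at 1.48 and 3.78, 1.99 and 1.28, 25.5 and 18.6, and 109 and 84.4 CPM (adjusted p = 1.11e-07), and ROBO2 at 2.97 and 1.69, 2.15 and 2.02, 9.36 and 7.80, and 23.3 and 18.5 (adjusted p = 1.86e-07). Both were low after DE(a) and APS and highest after PPS. PLXNA4 ran the other way, at 76.6 and 109, 49.9 and 60.9, 8.99 and 15.9, and 1.15 and 1.88 CPM (adjusted p = 3.78e-07), and SEMA3E stood at 59.4 and 55.5, 79.9 and 69.6, 50.8 and 39.6, and 4.90 and 8.43 (adjusted p = 6.24e-07). PLXND1, the receptor of SEMA3E, was highest where SEMA3E was lowest, at 77.9 and 95.3, 76.7 and 78.0, 118 and 117, and 223 and 197 CPM (adjusted p = 2.58e-05). SEMA6A was high after DE(a) and PPS, at 326 and 329.9, 136 and 128, 173 and 114, and 351 and 330.1 CPM (adjusted p = 2.13e-05). Markers of several fates moved with these genes. In PPS-DE(b) SOX17 stood at 113 and 224 CPM against 330.4 and 439.6 in DE(a)-DE(b), and FOXA2 at a mean of 6.59 against 105. The lateral markers HAND1 and FOXF1 summed to 102 and 70.0 CPM in PPS-DE(b) against 0 and 0.0583, and the paraxial markers TBX6 and MSGN1 to 63.2 and 63.6 against 2.27 and 1.92. Their part in these differences was not tested.

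After PM medium SLIT1 had the smallest adjusted p. It stood at 14.1 and 30.5, 27.0 and 38.6, 73.3 and 111, and 349 and 347 CPM after DE(a), APS, MPS and PPS (adjusted p = 1.48e-06). Its levels were higher the more posterior the day 1 treatment, and only DE(a)-PM and APS-PM overlapped. SEMA5A was lowest in PPS-PM, at 34.5 and 83.0, 54.5 and 97.5, 40.4 and 34.3, and 6.23 and 8.80 CPM (adjusted p = 1.89e-05). UNC5D, a further UNC5 receptor, was low after MPS and PPS, at 50.2 and 38.3, 49.5 and 23.8, 15.7 and 11.7, and 12.1 and 15.0 CPM (adjusted p = 7.36e-05). SEMA6B was lower in the same order, at 38.5 and 20.5, 30.6 and 15.7, 11.8 and 8.34, and 5.39 and 4.30 CPM (adjusted p = 0.000508). SEMA3A, a repellent ligand of neuropilin 1, went the other way, at 14.7 and 11.8, 17.6 and 15.9, 26.1 and 24.5, and 36.7 and 34.9 CPM (adjusted p = 0.000721), and SEMA6A was high after DE(a) and PPS, at 331 and 228, 179 and 120.3, 163 and 121, and 421 and 346 (adjusted p = 9.98e-05). When only the 8 PM libraries entered the fit, 3 members were called in place of 21, and of these 6 genes SLIT1 and SEMA3A kept their calls. The DE(a)-PM replicates differed in SOX17 and FOXA2, which summed to 106 and 7.12 CPM, and in EPHB3 (27.5 and 7.30 CPM), PLXNA4 (1.55 and 0.112) and SEMA3G, a class 3 semaphorin (25.4 and 2.08), each higher in replicate 1. In all 4 PM conditions replicate 1 held more EPHB3 and less EPHA4 than replicate 2, a pattern singled out after its values were seen.

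After LM medium ROBO2 had the smallest adjusted p, at 4.53 and 6.16, 9.03 and 13.2, 17.5 and 24.0, and 90.3 and 86.6 CPM (adjusted p = 1.52e-08). Its levels were highest in PPS-LM, where the amnion markers summed to 1042 and 1156 CPM, of which IGFBP3 held 709 and 697. The sum was 106 and 153 in MPS-LM, and 259 and 335 in DE(a)-LM, where ROBO2 was lowest. UNC5D, SEMA3E, SEMA6B, EFNA5 and EPHA1 were instead highest after DE(a). UNC5D stood at 25.9 and 31.7, 10.5 and 7.14, 2.97 and 4.27, and 3.47 and 5.19 CPM (adjusted p = 1.04e-07), and SEMA3E at 42.1 and 40.4, 28.2 and 18.3, 8.69 and 5.29, and 5.08 and 3.83 (adjusted p = 2.65e-07). SEMA6B stood at 95.5 and 77.3, 38.3 and 26.5, 9.58 and 7.55, and 5.68 and 6.12 CPM (adjusted p = 5.01e-07). EFNA5 and EPHA1, a ligand and a receptor of the A class, both had their lowest mean in MPS-LM. EFNA5 stood at 27.5 and 20.0, 11.3 and 8.95, 4.97 and 6.07, and 5.73 and 9.90 CPM (adjusted p = 1.64e-06) and EPHA1 at 46.8 and 55.0, 20.3 and 23.2, 9.72 and 9.45, and 19.2 and 28.3 (adjusted p = 1.8e-06). In DE(a)-LM the endoderm markers SOX17 and FOXA2 summed to 129 and 98.4 CPM, against 0 and 0.19 in MPS-LM. The pluripotency marker POU5F1 stood at 385 and 261 CPM against 134 and 126, SOX2 at 26.5 and 10.6 against 0.64 and 0.333, and HAND1 at 388 and 818 against 1789.5 and 2127. The part of these and the amnion markers in the differences was not tested.

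Whether the effect of day 1 depended on the day 2 medium was tested by the interaction over the 12 conditions at 48 h, which was called for 24 members, against 13.1% of all genes. SEMA7A had the smallest adjusted p (2.82e-05). After PPS it was high in DE(b) medium, at 28.1 and 26.9 CPM against 14.3 and 10.6 after DE(a), whereas in LM medium it was low after PPS, at 11.3 and 10.6 against 27.2 and 27.7, and likewise in PM medium, at 16.3 and 19.5 against 35.6 and 30.0. SEMA3A (adjusted p = 3.8e-05) was highest after DE(a) in DE(b) medium, at 43.4 and 34.4, 17.2 and 11.8, 18.4 and 10.001, and 16.2 and 12.9 CPM after DE(a), APS, MPS and PPS, and highest after PPS in PM medium, as given above. UNC5C (adjusted p = 7.58e-05) was low only after DE(a) in LM medium, at 5.35 and 27.0, 94.2 and 187, 188 and 222, and 248 and 213 CPM. In PM medium it was at or above 72.3 CPM after all 4 treatments, from 72.3 and 94.5 after DE(a) to 214 and 236 after PPS. SLIT1 (adjusted p = 7.77e-05) varied with day 1 in PM medium, while in DE(b) and LM medium it stayed at or under 5.00 CPM.

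EPHA7 and EPHA4 both varied with day 1 in LM medium, and EPHA4 also in PM medium (adjusted p = 0.0254). EPHA7 (interaction adjusted p = 8.58e-05) stood in LM medium at 16.4 and 30.3, 95.2 and 163, 457 and 308, and 222 and 117 CPM after DE(a), APS, MPS and PPS. In DE(b) medium it stood between 3.80 and 10.8 CPM, and in PM medium between 2.68 and 7.64. EPHA4 (interaction adjusted p = 0.000119) stood at 50.7 and 53.1, 26.1 and 20.6, 7.81 and 4.83, and 14.9 and 21.2 CPM in LM medium and at 149.6 and 293, 127 and 247, 184 and 328, and 415 and 512 in PM medium. It was thus highest after DE(a) in LM medium and highest after PPS in PM medium, while in DE(b) medium the day 1 treatments were not called (adjusted p = 0.703).

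Other genes of these pathways were counted from lists of 12 co-receptors and further ligands and of 21 intracellular effectors, all of them tested. Against the control, 8 of the 12 co-receptors and ligands were called in DE(a)-24h (4 higher and 4 lower), 9 in APS-24h and 9 in MPS-24h (6 higher and 3 lower in each), and 8 in PPS-24h (6 and 2). Over all genes 10.3%, 13.6%, 16.5% and 16.4% were higher and 8.68%, 11%, 13.4% and 13.4% lower in these comparisons. NRP1, the co-receptor of SEMA3A, changed by 1.60 ± 0.37 in DE(a)-24h (adjusted p = 0.00299) and 5.29 ± 0.41 in MPS-24h (adjusted p = 1.8e-09) on the log2 scale. FLRT3, a ligand of UNC5 receptors, changed by 7.81 ± 0.35 in APS-24h (adjusted p = 6.9e-13). DRAXIN, which binds DCC and netrin, was lower in all 4 populations, from -1.92 in PPS-24h to -2.34 in APS-24h (adjusted p = 2.17e-06 and 2.01e-07). In the day 2 media 10 of the 12 were called for DE(b) against PM (6 higher and 4 lower), 9 for LM against PM (4 and 5) and 7 for LM against DE(b) (2 and 5), with 21.4% and 21.6%, 21% and 21%, and 19.8% and 19.8% of all genes higher and lower. DCC, the attractive netrin receptor, was lower in LM than in PM medium (log2 fold change -5.29 ± 0.58, adjusted p = 1.8e-07), as NTN1 was. NRP2, the co-receptor of SEMA3F, was higher in DE(b) than in PM medium (log2 fold change 2.40 ± 0.18, adjusted p = 3.42e-10). Of the 21 effectors, 3 rose and 8 fell in DE(a)-24h and likewise in APS-24h, 6 rose and 9 fell in MPS-24h, and 5 rose and 8 fell in PPS-24h, beside the same shares of all genes. In the day 2 media 6 were higher and 10 lower for DE(b) against PM, 5 and 11 for LM against PM, and 8 and 6 for LM against DE(b), again beside the shares given above. The Rac activator VAV3 was higher in DE(b) than in PM medium (log2 fold change 1.61 ± 0.14, adjusted p = 2.08e-09), and MICAL2, which oxidizes actin, was higher in LM than in PM medium (log2 fold change 2.67 ± 0.23, adjusted p = 2.44e-09).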

How the data were processed

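Poly(A)-selected, stranded mRNA was sequenced from 34 libraries, paired-end. The authors quantified reads with Salmon 1.10.2 on a GRCh38 transcriptome, correcting for sequence and GC bias, and deposited estimated counts per gene, which were summed from transcripts in R 4.4.2 and are not normalized. The libraries of replicate 1 and of replicate 2 stand in separate tables. These estimated counts were rounded to whole numbers here and tested with edgeR 4.0.16 in R 4.3.3: TMM scaling, a filter on low counts that kept 17895 of 37951 rows, a mean for each condition, quasi-likelihood tests (common dispersion 0.0611, 17 residual degrees of freedom) and Benjamini-Hochberg adjustment over all genes tested. The SE is the log2 fold change divided by the square root of F. Interactions and differences among several groups are F tests. Library totals had a median of 19341118 counts. CPM divide by these totals, and levels per kilobase use the annotated exon length of GENCODE release 44.

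Groups came from the sample labels. Labels do not say whether the 2 libraries of a condition came from separate cultures, so p-values measure the spread between these libraries only. No 2 libraries were identical. The genes and lists were chosen with earlier results of these data known. In each single comparison up to 5 rises and 5 falls among called genes were described if a compared condition averaged 5 CPM or more, ranked by log2 fold change, and in comparisons of several contrasts the 6 with the smallest adjusted p, with ligand or receptor partners named beside them. A condition whose libraries held at most 3 counts each was set to that floor. Promoter windows came from RefSeq on GRCh38.p14. On simulated counts for 17895 genes, LM against PM recovered 75% of genes changed by a log2 of 1 and 91% of those changed by 2, and MPS-24h against the control 33% and 62%. Alternatives were RLE scaling, no filter, DESeq2 1.42.0, only the libraries compared, a replicate block and leaving out each library.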

Additional observations from a re-analysis of the deposited data

Results flagged for a closer look

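These 24 guidance genes drew attention because the difference that the day 2 medium made to their level depended on the day 1 treatment, by the interaction test of edgeR over the 12 conditions at 48 h. Among the semaphorins and their receptors the adjusted p was 2.82e-05 for SEMA7A, 3.8e-05 for SEMA3A, 0.000276 for SEMA3E, 0.00124 for SEMA3C, 0.00266 for SEMA4D, 0.000156 for PLXND1 and 0.0193 for PLXNA4. Among the Eph receptors it was 8.58e-05 for EPHA7, 0.000119 for EPHA4, 0.00107 for EPHB1, 0.00596 for EPHA10, 0.0167 for EPHB3 and 0.032 for EPHA1, and among the ephrins 0.00134 for EFNA1, 0.00192 for EFNA5 and 0.0126 for EFNB2. Among the SLIT and ROBO genes it was 7.77e-05 for SLIT1, 0.000233 for SLIT3, 0.000359 for SLIT2 and 0.00513 for ROBO2. Among the netrins and UNC5 receptors it was 7.58e-05 for UNC5C, 0.00559 for NTN1, 0.0123 for NTN4 and 0.0343 for UNC5D. EPHA10 ran at no more than 1.09 CPM in any DE(b), PM or LM library.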

How the results depend on the processing

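Over all comparisons, 486 calls of single genes had a mean of 5 CPM or more in a compared condition. Calls below that level were left out of these 486. Among the 486, calls of 1 contrast kept their direction under every alternative run. Calls from F tests of several contrasts have no direction. DESeq2 and the replicate block ended 0 of the 486 calls, RLE scaling 1, no filter on low counts 7 and a fit of only the libraries compared 62. Leaving out 1 library ended 416 of 4352. Of the 148 calls picked for description by fold change or adjusted p, 20 were lost without at least 1 library and 128 were not. Other calls named beside them in the text do not enter this count. The number of called guidance genes for APS-24h against DE(a)-24h was 2, with 10 without a filter, 4 by DESeq2 and 0 to 2 when leaving out 1 library. For MPS-24h against APS-24h it was 8, with 19 without a filter, 3 from only the libraries compared and 2 to 4 when leaving out 1 library. For PPS-24h against MPS-24h it was 11, with 23 without a filter, 5 from only the libraries compared, 18 by DESeq2 and 3 to 10 when leaving out 1 library. For APS-PM against APS-24h it was 28, with 17 from only the libraries compared and 18 to 27 when leaving out 1 library. Day 1 treatments in PM medium differed in 21, with 34 without a filter and 3 from only the libraries compared, and the interaction called 24, with 41 without a filter. The cause of these shifts was not tested, beyond the fewer libraries in 2 of the alternatives.

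Over all genes, counts of calls moved by over 1.5 times in the same comparisons: APS-24h against DE(a)-24h from 131 to 570 without a filter, 264 by DESeq2 and 73 from only the libraries compared, MPS-24h against APS-24h from 524 to 1144, 809 and 246, PPS-24h against MPS-24h from 1098 to 1876, 1675 and 312, and PM medium from 1337 to 2528, 2031 and 297, in that order. The interaction moved from 2351 to 4091 without a filter and 3634 by DESeq2. From only the libraries compared, the 4 populations moved from 3359 to 1862, DE(a)-DE(b) against DE(a)-24h from 5012 to 2937 and APS-PM against APS-24h from 4492 to 2487.

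Conditions share replicate numbers. The labels number the libraries of each condition by replicate, and all replicate 2 libraries were deposited in a second table. They do not say that a number marks a shared culture, day or sequencing batch. The correlation of same-numbered deviations from the condition means ran from -0.0574 to 0.293 over 136 pairs of conditions (median 0.0641), with 28 over 0.1. The main fit did not take the numbers as pairs. With the replicate number as a block, 47 guidance genes were called for LM against PM and 43 among day 1 treatments in LM medium, against 47 and 39 without it, and 35 differed among the 4 populations at 24 h, against 29. No count of guidance genes was lower with the block, and none moved by over 1.5 times. Over all genes the block gave more calls in every comparison. Calls went from 5012 to 6017 for DE(a)-DE(b) against DE(a)-24h and from 2351 to 3194 for the interaction. Only PPS-24h against MPS-24h moved by over 1.5 times, from 1098 to 1717. What the replicates of a number share was not tested. With 2 libraries a condition, genes of low counts such as UNC5A and EPHA8 carry wide errors.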
